A study of Arabidopsis thaliana with 6 samples.

Results

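The 8 genes described here, AT1G22980, AT1G29540, AT1G53420, AT1G64240, AT2G22590, AT3G03475, AT4G16260 and AT5G62210, separated *bravo-2* from WT in sorted quiescent centre (QC) cells of the Arabidopsis root. They were chosen by their counts in this same comparison, out of 37336 quantified genes, as past an adjusted p of 0.05 in DESeq2. Genes whose genotypes lay at least 10-fold apart in all libraries were left out. For that distance the lower genotype was taken as at least 3 counts. RNA was sequenced from 3 *bravo-2* and 3 WT libraries of QC cells, all from primary roots of 5-day-old seedlings. *bravo-2* is a knockout allele of *BRAVO* (AT5G17800). Both genotypes carried GFP under the *WOX5* promoter, by which the cells were sorted from protoplasts, and this promoter is also active in some vascular initials. The labels do not say that libraries of a genotype came from separate sowings or sorts, and p-values therefore measure only the spread between these libraries.

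The QC is a small group of rarely dividing cells that keeps the surrounding stem cells of the root tip undifferentiated. BRAVO is a MYB transcription factor that restrains division of QC cells, and WOX5 is a homeobox factor that maintains the neighbouring stem cells. Among the 8 genes, 6 encode proteins. UDP-glycosyltransferases such as AT2G22590 attach sugars to small molecules, and glycosyl hydrolases such as AT4G16260 cut sugar polymers. Receptor-like kinases such as AT1G53420 carry signals across the plasma membrane, and embryo-specific protein 3 (ATS3), the annotated name of AT5G62210, is a family named for its expression in embryos. AT1G22980 is annotated as a Grap2 and cyclin-D-interacting protein, and AT1G29540 as a relative of BOBBER, a chaperone-like protein. The remaining genes are a pseudogene (AT1G64240) and a long non-coding RNA (AT3G03475).

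Since the comparison of *bravo-2* with WT chose the genes, its values are given for them as a description. DESeq2 placed 13 genes past 0.05, which is 0.0828% of the 15706 genes with an adjusted p. They were the 8 genes described here, 3 of them higher in *bravo-2* (4 genes in all, 0.0255%) and 5 lower (9 in all, 0.0573%), and 5 others that lay at least 10-fold apart in all libraries. In all 8 genes the *bravo-2* values did not overlap the WT values, a pattern held by 3.67% of the 15739 genes tested. Just inside the threshold were AT5G62210, with an adjusted p of 0.0388 in DESeq2, and AT1G53420, with 0.0406. Just outside it were AT4G15480, another UDP-glycosyltransferase, with 0.0604 in DESeq2, and AT3G47360 with 0.0745. In edgeR's quasi-likelihood test 0 genes passed 0.05 after adjustment (0.0%), while 125 genes (0.794%) had an unadjusted p under 0.05. All 8 genes were among these 125, and each had an adjusted p of 1.00 in edgeR.

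The libraries held 10990221 to 14425263 estimated counts and differed in makeup beyond genotype. The summed CPM (counts relative to the library total, scaled with TMM) of 6 QC markers was 3103, 978 and 479 in *bravo-2* replicates 1, 2 and 3, against 594, 1696 and 1703 in WT replicates 1, 2 and 3. The sum of 7 root hair markers was 16.6, 1762 and 4601 CPM in *bravo-2*, against 5971, 2886 and 4541 CPM in WT. *bravo-2* replicate 1 thus stood apart, with many QC and few root hair transcripts, whereas *bravo-2* replicate 3 and WT replicate 1 had the fewest QC transcripts. In 5 of 6 libraries the root hair sum exceeded the QC sum, although the cells are labelled as QC cells and the root hair factor RHD6 had only 1 count in *bravo-2* replicate 1. *BRAVO* reached 13.8, 10.3 and 11.8 CPM in *bravo-2*, against 13.3, 37.5 and 60.5 CPM in WT. WT replicate 1 lay within the *bravo-2* range, so the targeted gene did not separate that library from the mutant. *WOX5* was present at 444, 120 and 96.5 CPM in *bravo-2*, against 80.3, 261 and 372 CPM in WT, with overlapping groups. Of the 33 markers examined, 30 were tested and 0 passed in edgeR or DESeq2, with 1 (*BRAVO*) at an unadjusted p under 0.05 in edgeR. In such bulk libraries, fewer cells of a type and less RNA per cell cannot be told apart.

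BRAVO is a MYB factor, and the 250 bases before each annotated start were therefore searched on both strands for short motifs in the RefSeq TAIR10.1 sequence. The MYB core CNGTTG was in 0 of the 8 windows and in 21.5% of the 37032 windows searched over all genes, and ACCAAC, another MYB-type element, was in 1 (AT1G29540) against 11.9%. The E-box CANNTG was in 3 windows (AT1G53420, AT2G22590 and AT3G03475) against 56.0%, and the W-box TTGACN in 2 (AT3G03475 and AT4G16260) against 43.9%. CGTGNG was in 1 (AT3G03475) against 11.9%, and TTAATGG in 0 against 6.23%. AT3G03475, which thus gave 1 of the 3 E-box and 1 of the 2 W-box windows, overlaps an antisense gene. Its window held 50.4% G and C bases, against a median of 32.0% over all windows. An E-box reads the same on both strands. CNGTTG, read as CAACNG on the other strand, can overlap ACCAAC, and CANNTG can overlap CGTGNG. These matches describe letters in a window and not binding. The windows of the 3 lower genes outside antisense overlaps and of 1 higher gene are printed. Those of the higher genes AT1G53420 and AT1G64240 also lie outside other genes but are not printed. None of the printed windows lies inside another gene. Each runs 5′ to 3′ toward the start of the gene on the gene's strand, with any of the searched motifs in capitals. They lie at chr5:24987812-24988061 (minus strand), chr2:9592706-9592955 (plus), chr4:9201644-9201893 (minus) and chr1:8134389-8134638 (minus).
AT5G62210: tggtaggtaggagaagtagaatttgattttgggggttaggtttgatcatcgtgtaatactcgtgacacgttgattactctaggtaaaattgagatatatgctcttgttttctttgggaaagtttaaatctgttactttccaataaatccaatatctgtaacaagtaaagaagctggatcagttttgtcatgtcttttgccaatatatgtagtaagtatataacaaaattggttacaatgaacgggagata
AT2G22590: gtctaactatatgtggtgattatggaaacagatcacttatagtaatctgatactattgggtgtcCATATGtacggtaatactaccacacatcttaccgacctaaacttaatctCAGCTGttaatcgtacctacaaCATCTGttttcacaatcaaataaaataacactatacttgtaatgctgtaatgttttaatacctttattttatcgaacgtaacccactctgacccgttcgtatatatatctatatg
AT4G16260: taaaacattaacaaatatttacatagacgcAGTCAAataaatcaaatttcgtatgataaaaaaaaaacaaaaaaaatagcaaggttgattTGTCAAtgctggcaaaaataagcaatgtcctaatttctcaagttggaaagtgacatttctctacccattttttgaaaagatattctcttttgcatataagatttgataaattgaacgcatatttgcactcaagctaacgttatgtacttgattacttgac
AT1G22980: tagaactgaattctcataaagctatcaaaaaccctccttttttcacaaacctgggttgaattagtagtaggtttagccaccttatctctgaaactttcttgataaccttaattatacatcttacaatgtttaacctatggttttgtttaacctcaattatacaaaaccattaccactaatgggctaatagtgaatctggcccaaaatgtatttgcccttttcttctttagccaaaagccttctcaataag
The window of AT2G22590 held 3 E-boxes and that of AT4G16260 held 2 whole W-boxes, while those of AT5G62210 and AT1G22980 held none of the 6 motifs. The window of AT4G16260 also ends in ttgac, which was not counted because the last letter of TTGACN falls outside it.

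Per length, the 8 genes ranged from not detected to well above the typical gene. In TPM (a level per transcript length), the order in *bravo-2* was AT5G62210 (59.4), AT2G22590 (11.3), AT1G53420 (5.52), AT1G22980 (4.77), AT1G64240 (4.13), AT3G03475 (1.53), AT4G16260 (0.623) and AT1G29540 (0), as means of 3 libraries. The order in WT was AT5G62210 (271), AT2G22590 (87.7), AT3G03475 (25.1), AT4G16260 (9.31), AT1G29540 (8.83), AT1G53420 (0.0367), and AT1G22980 and AT1G64240 (0 each). In *bravo-2*, from AT2G22590 down to AT4G16260, the libraries of each gene overlapped those of the next gene in the order. AT5G62210 stood clear above. AT1G29540, at 0 in all 3 libraries, lay below the others except for AT3G03475, which was also at 0 in *bravo-2* replicate 3. In WT the same overlap held from AT5G62210 down to AT1G29540, and only AT1G53420, AT1G22980 and AT1G64240 stood clear below. The median over the genes tested was 23.7 TPM in *bravo-2* and 21.8 TPM in WT. Only AT5G62210 lay above the median in both genotypes.

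**Figure D1:**
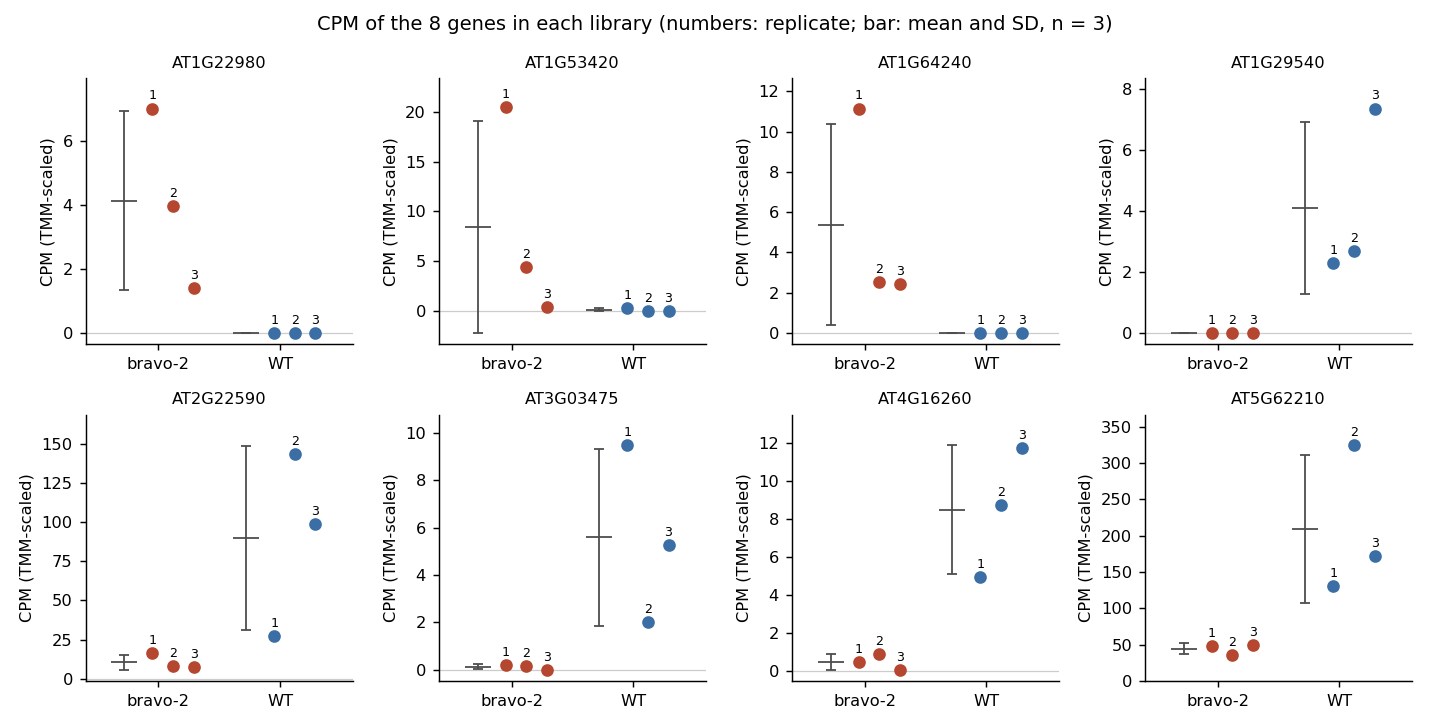
CPM (TMM-scaled) of each of the 8 genes in the 3 *bravo-2* libraries (red, left) and the 3 WT libraries (blue, right), on linear axes that differ between panels; digits give the replicate, and the grey bar the mean and SD of 3 libraries. In every panel the 2 genotypes do not overlap, and the 3 genes higher in *bravo-2* are highest in replicate 1.

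AT5G62210 lies at chr5:24986294-24987811 on the minus strand, has 2 exons and encodes 223 residues. It is on the same chromosome as *BRAVO*, 19.1 Mb away. Its CPM was 47.4, 35.5 and 49.6 in *bravo-2*, against 131, 325 and 172 in WT. The *bravo-2* libraries were close to each other, and the lowest WT library, replicate 1, still lay 2.65-fold above the highest *bravo-2* library. The means were 44.2 ± 7.61 CPM in *bravo-2* and 209 ± 102 CPM in WT (SD, n = 3 each), a log2 fold change of -2.24 (SE 0.51) in edgeR. Counts stood at 421 to 664 in *bravo-2*, against 1606 to 3855 in WT. The error of counting reads is therefore small beside the spread between libraries. Error from amplifying the RNA, done without molecular identifiers, is not part of it. Of the 8 genes AT5G62210 had the smallest fold change and the highest level.

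The next gene on the chromosome, AT5G62200, is also annotated as ATS3, lies 398 bases away on the same strand and is 54.3% identical in protein sequence. It was at 13.2, 10.7 and 9.88 CPM in *bravo-2*, against 17.7, 20.1 and 21.4 CPM in WT. The groups did not overlap, but its log2 fold change of -0.81 (SE 0.39) did not pass in edgeR (unadjusted p = 0.074, adjusted p = 1.00) or in DESeq2. The closest protein, AT5G07190 (58.5% identical), had 0.286, 0.758 and 1.41 CPM in *bravo-2*, against 4.33, 3.70 and 0.875 CPM in WT, below the filter and with overlapping groups. A more distant ATS3 gene, AT2G41475, had 1.57, 31.9 and 70.4 CPM in *bravo-2*, against 73.2, 21.1 and 28.5 CPM in WT, with overlap throughout.

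AT2G22590, the UDP-glycosyltransferase, lies at chr2:9592956-9594579 on the plus strand and has 1 exon that encodes 470 residues. Its CPM was 16.1, 8.00 and 7.53 in *bravo-2*, against 27.0, 144 and 99.0 in WT. WT replicate 1 was far below the other WT libraries and only 1.68-fold above *bravo-2* replicate 1. The means were 10.6 ± 4.84 CPM in *bravo-2* and 90.0 ± 58.9 CPM in WT (SD, n = 3 each), 8.52-fold lower in *bravo-2*. The highest WT library was 5.32-fold above the lowest, so the distance between the genotypes varied with the WT library. Without WT replicate 2, WT replicate 3 or *bravo-2* replicate 2 the gene no longer passed in DESeq2, and without WT replicate 1 its adjusted p was 6.31e-05.

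Its nearest relatives were hardly expressed. AT5G65550 (47.0% identical) had 0 to 1.57 CPM in *bravo-2*, against 0 to 2.10 CPM in WT, and AT5G49690 (46.5%) had 0 to 1.41 CPM in *bravo-2*, against 0.421 to 1.06 CPM in WT. Among the 130 other genes annotated as UDP-glycosyltransferases, 77 were tested, with 35 fold changes above and 42 below 0, a median log2 fold change of -0.05 and 0 past edgeR or DESeq2 (3 at an unadjusted p under 0.05 in edgeR). The median over all genes tested was 0.04. In 7 of the 77 all *bravo-2* values were below all WT values, and in 1 they were above, against 1.99% and 1.68% of the genes tested. These included AT4G15480, just outside the threshold, at 5.57, 4.21 and 9.98 CPM in *bravo-2*, against 22.0, 57.9 and 40.3 CPM in WT.

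AT4G16260, the glycosyl hydrolase, lies at chr4:9199972-9201643 on the minus strand, has 3 exons and encodes 344 residues. It was close to absent in *bravo-2*, with 7, 11 and 1 estimated counts, against 61, 104 and 161 in WT. In CPM this was 0.500, 0.927 and 0.0941 in *bravo-2*, against 4.98, 8.76 and 11.7 in WT. WT replicate 1 was the lowest of its group and 5.38-fold above the highest *bravo-2* library. The means were 0.507 ± 0.416 CPM in *bravo-2* and 8.49 ± 3.39 CPM in WT (SD, n = 3 each), a log2 fold change of -4.03 (SE 0.91) in edgeR. In WT, RSEM gave its longer transcript a share of 33.3%, 93.1% and 32.7%, whereas the few reads of *bravo-2* do not allow a share to be read.

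The closest related glucanases were near 0 in both genotypes. AT3G57270 (54.1% identical) was at 0 in all *bravo-2* libraries and at 0 to 0.168 CPM in WT, and AT3G57240 (55.1%) was at 0 to 0.786 CPM in *bravo-2*, against 0 to 0.245 CPM in WT. Of 38 genes annotated as family 17 hydrolases or related glucanases, 22 were tested, 11 with fold changes above and 11 below 0, and 0 passed in edgeR or DESeq2, also unadjusted at 0.05 in edgeR. The genes on either side, AT4G16250 (phytochrome D) and AT4G16265 (a subunit of RNA polymerase), had log2 fold changes of 0.40 (SE 0.63) and 0.44 (SE 0.62).

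The 3 genes higher in *bravo-2* were nearly silent in WT and all highest in *bravo-2* replicate 1. This was also the library with the largest QC sum (3103 CPM) and the smallest root hair sum (16.6 CPM), and all 3 were lowest in *bravo-2* replicate 3. WT replicates 2 and 3 held 0 counts of each of the 3 genes. Their QC sums were 1696 and 1703 CPM and their root hair sums 2886 and 4541 CPM. The part of sample makeup in the values of the 3 genes was not tested.

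AT1G22980 lies at chr1:8132396-8134388 on the minus strand, has up to 5 exons and encodes 362 residues. It had 98, 47 and 15 counts in *bravo-2* (7.0, 3.96 and 1.41 CPM), against 0, 0 and 0 in WT. Every *bravo-2* library was above the floor of 3 counts, the smallest number taken as shown, and no WT library had a count. The mean of 4.12 ± 2.80 CPM in *bravo-2* (SD, n = 3) was at least 17.3-fold higher than the mean floor of the WT libraries, and the lowest *bravo-2* library at least 5.59-fold higher than the highest floor. Such floors, and the intervals given for pooled counts, take in only the error of counting reads and leave out the spread between libraries. The RNA was amplified without molecular identifiers, so they do not cover the error of counting molecules. The 40 last bases of its exons overlap AT1G22970, the adjacent gene on the same strand and its closest relative (63.0% identical, annotated as a cyclin-D1-binding protein). AT1G22970 had 51.2, 55.0 and 16.4 CPM in *bravo-2*, against 15.2, 32.5 and 45.0 CPM in WT, with overlapping groups and a log2 fold change of 0.40 (SE 0.60). RSEM reported no uncertainty in dividing reads between the pair, as the posterior SD of the count of AT1G22980 was 0 in every library.

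AT1G64240, the pseudogene, lies at chr1:23837561-23839897 on the plus strand. It had 156, 30 and 26 counts in *bravo-2* (11.1, 2.53 and 2.45 CPM), against 0, 0 and 0 in WT. *bravo-2* replicates 2 and 3 were alike and replicate 1 was 4.55-fold above the lowest. The mean of 5.37 ± 5.00 CPM in *bravo-2* (SD, n = 3) was at least 22.5-fold higher than the mean WT floor, and the lowest library at least 9.69-fold higher than the highest floor. Of the 15739 genes tested, AT1G22980 and AT1G64240 were the 2 with 0 counts in all WT libraries and more than 3 in each *bravo-2* library. A gene at 0 in WT was tested only where its *bravo-2* mean reached 4 CPM. Genes below that filter were not counted, so the number does not show how rare the pattern is. The genes on either side, AT1G64235 and AT1G64250, were below the filter. AT1G64250 was at 6.79, 0.590 and 0.753 CPM in *bravo-2*, against 0, 1.94 and 2.04 CPM in WT, so *bravo-2* replicate 1 was high there too.

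AT1G53420, the leucine-rich repeat kinase, lies at chr1:19926626-19931494 on the minus strand, has 23 exons and encodes 953 residues. It had 287, 52 and 4 counts in *bravo-2* (20.5, 4.38 and 0.377 CPM), against 3, 0 and 0 in WT (0.245, 0 and 0 CPM). Its *bravo-2* libraries spread over 54.5-fold, and the lowest was 1 count above the highest WT library. Pooled over libraries, 343 counts in *bravo-2* against 3 in WT gave a ratio of 118.5 after scaling by library size (95% exact interval 40.2 to 577.5), which leaves out the spread between libraries. Of the 343 counts, 287 were in *bravo-2* replicate 1, and without it 56 counts against 3 gave a ratio of 31.4 (10.2 to 156.8). Without WT replicate 1, WT held 0 counts. The gene did not pass in DESeq2 without *bravo-2* replicate 2, without WT replicate 2 or without WT replicate 3, and without *bravo-2* replicate 1 it fell below the expression filter of a mean of 4 CPM.

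Its closest relatives were expressed in both genotypes. The nearest, AT3G14840 (63.0% identical), had 52.5, 55.4 and 203 CPM in *bravo-2*, against 206, 72.3 and 96.6 CPM in WT. The adjacent kinase AT1G53430 (46.7% identical) had 0, 16.1 and 31.4 CPM in *bravo-2*, against 25.9, 21.2 and 8.46 CPM in WT. In *bravo-2* the pair ran in opposite order: where AT1G53420 was highest, AT1G53430 was at 0. In WT both were highest in replicate 1. The next kinase on the chromosome, AT1G53440 (48.8% identical), ran in the same order as AT1G53420 in *bravo-2*. It had 18.6, 5.64 and 1.88 CPM in *bravo-2*, against 4.98, 7.16 and 12.7 CPM in WT. Among 180 other genes whose annotated name holds leucine-rich and kinase, 111 were tested, 46 with fold changes above and 65 below 0, with a median log2 fold change of -0.08 and 0 past edgeR or DESeq2 (0 at an unadjusted p under 0.05 in edgeR). In 3 of the 111 all *bravo-2* values were below all WT values, and in 0 they were above, against 1.99% and 1.68% of the genes tested. AT3G13380, which the name list does not hold and which is a relative by protein sequence annotated as BRI1-like 3, was at 43.1, 29.7 and 15.0 CPM in *bravo-2*, against 63.1, 64.7 and 73.2 CPM in WT (unadjusted p = 0.0359, adjusted p = 1.00 in edgeR). Also on chromosome 1, 31.6 kb from AT1G53420, lie AT1G53480 and the overlapping AT1G07887, which are among the 5 other genes that DESeq2 returned. AT1G53480 was at 0.286, 0.421 and 0 CPM in *bravo-2*, against 11.7, 13.2 and 9.77 CPM in WT, the opposite direction to AT1G53420. The 5 protein-coding genes between them had overlapping values in the genotypes. This stretch was chosen after its values were seen.

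**Figure D2:**
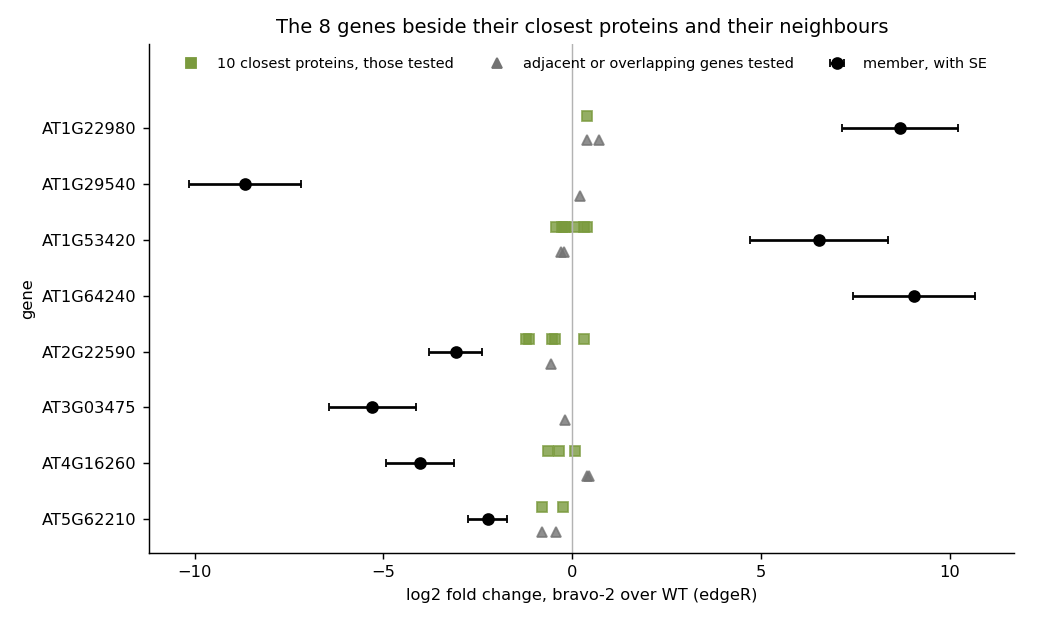
Log2 fold change of *bravo-2* over WT in edgeR (x axis) for each of the 8 genes (black circles, with SE), for those of its 10 closest proteins that were tested (green squares) and for the adjacent or overlapping genes tested (grey triangles). Of all 117 related genes, which include more distant ones not drawn, 66 were tested, with a median of -0.13. In edgeR or DESeq2 0 of these relatives and 0 neighbours passed. The 2 relatives at an unadjusted p under 0.05 in edgeR are among those not drawn.

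AT1G29540 and AT3G03475, both lower in *bravo-2*, share their exons with an antisense gene. The library kit does not mark the strand, and whether the counting used strand is not given in the sources used here, so a read from the shared bases cannot be told apart between the partners except by the model by which RSEM divides reads. For AT1G29540 (chr1:10327346-10328105, plus strand, 1 exon, 135 residues) all 760 exonic bases lie in exons of AT1G29535 on the other strand. For AT3G03475 (chr3:5953031-5953921, plus strand) 455 of 663 exonic bases lie in exons of AT3G17390, which encodes an S-adenosylmethionine synthetase.

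AT1G29540 had 0, 0 and 0 estimated counts in *bravo-2*, against 27.6, 31.8 and 100.8 in WT. In CPM the WT libraries held 2.29, 2.69 and 7.37, and the WT mean was 4.12 ± 2.82 CPM (SD, n = 3). AT1G29535 had 243.4, 142.6 and 59.0 estimated counts in *bravo-2*, against 61.3, 169.2 and 153.8 in WT. Summed over both genes, the reads numbered 243.4, 142.6 and 59.0 in *bravo-2*, against 88.9, 201.0 and 254.6 in WT. The sums overlapped between genotypes, and what separated them was the part given to AT1G29540, 0% in each *bravo-2* library against 31.1%, 15.8% and 39.6% in WT. RSEM also deposits a posterior mean, the count averaged over its sampled divisions of the reads, which was 3.83, 3.88 and 0.620 in *bravo-2*, against 19.3, 22.2 and 87.3 in WT. The groups did not overlap there either, at 13.6-fold lower CPM in *bravo-2*, but the WT mean of 3.25 CPM fell below the filter and the gene was not tested. The closest relative, AT2G34330 (61.8% identical), had 1.23 CPM in WT replicate 1 and 0 in the other libraries.

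AT3G03475 had 3, 2 and 0 estimated counts in *bravo-2*, against 116.4, 24.1 and 71.7 in WT (0.214, 0.168 and 0 CPM in *bravo-2*, against 9.48, 2.02 and 5.25 CPM in WT). Here WT replicate 1 was the highest of its group, unlike in the other 4 lower genes, which were lowest there. It has 2 annotated transcripts. As RSEM divided the reads, it placed 96.4%, 100% and 88.9% of the gene in AT3G03475.1 in WT, whose 413 bases all lie within an exon of AT3G17390. The 3 and 2 counts of *bravo-2* replicates 1 and 2 were placed in AT3G03475.2, which has 208 bases of its own, and so few counts do not allow a share to be read. The antisense partner was far more abundant, at 301, 1174 and 902 CPM in *bravo-2*, against 1424, 650 and 642 CPM in WT, so AT3G03475 took at most 0.0711% of the summed reads in *bravo-2* and 0.311% to 0.808% in WT.

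The division of reads was itself uncertain for AT3G03475. Its posterior SD was 15.9, 25.0 and 29.6 counts in *bravo-2*, against 58.3, 32.3 and 41.2 counts in WT, larger than the estimated count in all *bravo-2* libraries and in WT replicate 2. The posterior means were 22.4, 31.4 and 36.7 counts in *bravo-2*, against 114.0, 47.7 and 88.8 counts in WT. They still did not overlap, but the difference shrank to 2.59-fold in CPM (2.56 in *bravo-2* and 6.61 in WT). With posterior means in place of expected counts, an alternative chosen after seeing the data, its log2 fold change was -1.38 (SE 0.71) with an adjusted p of 1.00 in DESeq2. Of the 8 genes, 5 passed in that fit. AT3G03475 and AT5G62210 (adjusted p = 0.0508 in DESeq2) did not, and AT1G29540 was not tested.

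**Figure D3:**
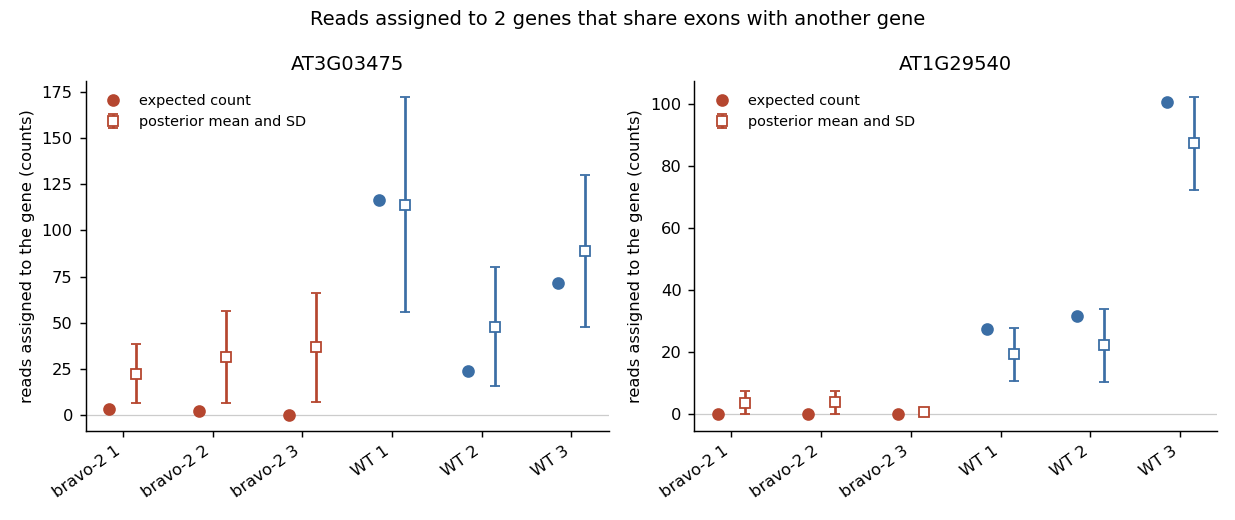
Estimated reads per library for AT3G03475 (left) and AT1G29540 (right), in *bravo-2* (red) and WT (blue): filled circles are RSEM's expected counts, open squares its posterior means with the posterior SD over its division of shared reads. For AT3G03475 the expected counts of 0 to 3 in *bravo-2* stand beside posterior means of 22.4 to 36.7, and the bars of *bravo-2* replicates 2 and 3 overlap those of all 3 WT libraries.

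The dependence on single libraries differed between the 8 genes. Each library was left out in turn. AT1G22980, AT1G29540 and AT1G64240, the 3 genes with 0 counts throughout a genotype, passed in DESeq2 in 5 of the 5 fits that tested them. The remaining fit could not test them, as each fell below the filter without its highest library. This was *bravo-2* replicate 1 for AT1G22980 and AT1G64240, and WT replicate 3 for AT1G29540. AT4G16260 passed in 4 of 6, AT3G03475 in 3 of 5, AT2G22590 and AT5G62210 in 3 of 6 each, and AT1G53420 in 2 of 5. Without *bravo-2* replicate 1, the library that stood apart in its markers, none of the 3 higher genes reached the filter. All 5 lower genes were tested there and passed, among 29 genes in all. Without WT replicate 1, whose *BRAVO* level matched *bravo-2*, 7 were tested and 7 passed, among 26 genes in all. AT3G03475 fell below the filter there. The losses came without WT replicate 3 (2 of 7 passed), without WT replicate 2 (4 of 8) and without *bravo-2* replicate 2 (4 of 8). Genes past the threshold in all numbered 11, 10 and 12 there, against 13 with all 6 libraries. Without *bravo-2* replicate 3, all 8 passed, among 111 genes in all. The direction was the same in every one of these fits. Since the genotypes did not overlap in any of these chosen genes, leaving out a library could hardly reverse the direction. In 4 of the 5 lower genes, all but AT3G03475, WT replicate 1 was the lowest WT library, beside its QC sum of 594 CPM and root hair sum of 5971 CPM, and the part of these sums in the values was not tested.

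**Figure D4:**
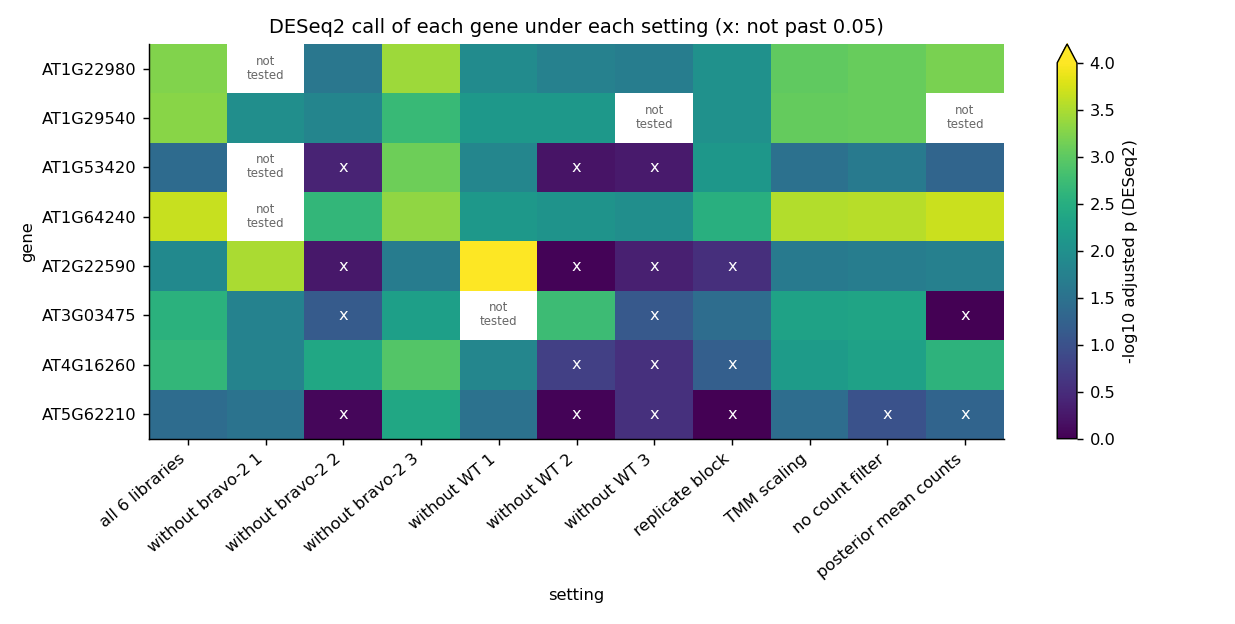
Adjusted p of each of the 8 genes (rows) in DESeq2 as -log10 (colour) with all 6 libraries, with each library left out and under 4 other settings (columns); x marks an adjusted p not past 0.05, and blank cells are genes below the filter. The rows of AT1G22980, AT1G29540 and AT1G64240 hold no x, but each is blank where its highest library was left out. AT1G53420, AT2G22590 and AT5G62210 lose the call without *bravo-2* replicate 2, WT replicate 2 or WT replicate 3.

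For each gene, the genes of most similar pattern were taken as the highest Pearson correlations of log2(CPM + 1) over the 6 libraries among all genes tested. With 6 points and genotype shared by all, these values only describe. AT2G22590 was most like AT1G06540 (r = 0.994) and AT1G34000, a one-helix protein (r = 0.993). AT5G62210 was most like AT2G23910, a Rossmann-fold protein (r = 0.991), and AT5G53970, a tyrosine transaminase (r = 0.986). AT4G16260 and AT1G29540 shared the calmodulin-like gene AT3G22930 among their closest (r = 0.990 and 0.987), beside AT5G56650, an amidohydrolase of auxin conjugates (r = 0.994), for AT4G16260 and AT4G32770, the tocopherol cyclase (r = 0.980), for AT1G29540. AT3G22930 was at 6.57, 7.08 and 6.12 CPM in *bravo-2*, against 9.72, 10.7 and 13.1 CPM in WT.

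The non-coding AT3G03475 was most like another gene annotated as non-coding, AT3G09875 (r = 0.984), followed by the mitochondrial carrier AT2G26360 (r = 0.969). AT3G09875 is among the 5 other genes that DESeq2 returned. Of the higher genes, AT1G22980 was most like AT5G57850 (r = 0.987) and AT4G13650 (r = 0.985), AT1G53420 most like AT2G15030 (r = 0.993) and AT1G10660 (r = 0.990), and AT1G64240 most like AT5G08270 (r = 0.984) and AT5G20830, which encodes sucrose synthase (r = 0.977). AT5G20830 was at 21.4, 7.33 and 7.91 CPM in *bravo-2*, against 4.09, 2.95 and 4.23 CPM in WT, and shared with AT1G64240 the high value of *bravo-2* replicate 1.

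The surroundings of the 8 genes were read in the same fits. Of 17 adjacent or overlapping genes 11 were tested, with 0 past in edgeR or DESeq2, 0 at an unadjusted p under 0.05 in edgeR and 1 (AT5G62200) whose genotypes did not overlap. Within 5 genes on either side, 46 of 80 genes were tested, 0 passed and 2 did not overlap (3.67% over all genes tested), AT5G62200 and the kinase AT1G64210, which had 0.714, 3.12 and 2.07 CPM in *bravo-2*, against 4.82, 3.79 and 4.45 CPM in WT. Among those not tested, AT5G62230 had 0, 0 and 0 counts in *bravo-2*, against 7, 13 and 20 in WT, and AT1G29510 had 0, 0 and 3 counts in *bravo-2*, against 27, 13 and 8 in WT, also without overlap.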

How the data were processed

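RNA of sorted QC cells was amplified with the SMART-Seq v4 kit and sequenced by the authors, who removed adaptors with cutadapt, mapped reads to TAIR10 with STAR and quantified Araport11 genes with RSEM (versions and settings not given in the sources used here). The deposited expected counts are estimated counts without normalization or batch correction, of which 83% of values above 0 were whole. The deposited TPM values and posterior mean counts come from the same RSEM runs. RSEM divides shared reads among genes, so overlapping genes are uncertain.

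Expected counts were rounded. The filter kept genes averaging 4 CPM or more in a genotype (15739 of 37336), scaled with TMM and compared with edgeR 4.0.16 (quasi-likelihood, Benjamini-Hochberg, threshold 0.05), with genotype as the only term. DESeq2 1.42.0 was run on the same genes, and 33 of them had no adjusted p. limma 3.58.1, upper quartile scaling, other filters, a replicate block and leaving out each library were tried (R 4.3.3). The study's NOISeqBIO and ARSyN steps were not run, as the labels do not say which libraries shared a sort (the titles carry codes such as 1WCT3 and 1BWCT2, whose meaning they do not give and which were not used), and the study names sorting as a confounded factor. Files of the *wox5-1* mutant were not analysed here. Floors were set at 3 counts (0.214 to 0.282 CPM).

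The members and lists were chosen with earlier results of these data known. Named genes were the 8 genes, *BRAVO*, *WOX5*, up to 2 closest relatives per gene (blastp 2.17.0, E at most 1e-20, at least 50% aligned), overlapping or tested neighbours, the 2 most similar patterns, and genes on either side of the DESeq2 threshold. AT2G41475, AT3G13380, AT1G53440, AT1G53480, AT5G62230, AT1G29510, AT1G64250 and AT1G64210 were named after their values were seen. Positions and sequences are from RefSeq TAIR10.1, which held 37051 of the 37336 identifiers, and whose spliced lengths matched those in the files within 0.5 bases for 26026 of 26029 genes with 1 transcript. Figures were drawn with matplotlib 3.10.9.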

Additional observations from a re-analysis of the deposited data

How the results depend on the processing

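The direction of each of the 8 genes was the same in all 92 alternatives run on the edgeR fit, of which only DESeq2 brought them past the threshold. The genes were chosen by this contrast and their genotypes did not overlap, so a kept direction is no separate evidence. Over all genes, edgeR's count of 0 became 13 in DESeq2 and 1 without a filter on low counts, and it was 0 in the other alternatives, also with any library left out. The DESeq2 count of 13 genes ranged from 10 to 111 when a library was left out, and that of the 8 genes from 2 to 8. It was 5 of the 8 on RSEM posterior mean counts, added after seeing the data, and 7 without a filter on low counts, where AT5G62210 was lost. Only AT2G22590 and AT5G62210 have at least 10 counts in every library. The cause of these differences was not tested.

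With the replicate number as a block, 0 genes passed in edgeR (52 at an unadjusted p under 0.05), and 16 genes and 5 of the 8 in DESeq2, where AT2G22590, AT4G16260 and AT5G62210 were lost. The labels do not say that the numbers pair the libraries. Same-numbered libraries had correlations of -0.72, -0.07 and -0.43 between their deviations from the genotype means. As the libraries also differ in makeup, these values cannot show whether any shared a sort. Depth limits the genes at 0 in a genotype, whose absence cannot be shown at fewer than 3 counts.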
